A study of Mus musculus with 3 samples.

Results

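The genes described here make or use nicotinamide adenine dinucleotide (NAD). They are the 10 listed symbols Nmrk2, Nmrk1, Nampt, Nmnat1, Nmnat3, Naprt, Nnt, Sirt1, Sirt3 and Parp1, of 32285 genes in the files, and all 10 had UMIs in every section. The list was drawn up with their levels in these sections known, those of Nmrk2 above all, so the levels are a description and support nothing by themselves. The libraries are Visium sections of C57BL/6 mouse hearts, in which each barcoded spot records the 3′ ends of the transcripts of a small piece of tissue that can hold several cells. There was 1 section per condition, cut from a frozen piece of 1 heart. The labels give no age, and the study's methods describe young adult mice. The sham mouse was gavaged with vehicle for 7 days and then had the needle passed without ligation. The I/R mouse had the same vehicle for 7 days, then the left anterior descending coronary artery (LAD) ligated for 30 min and opened again for 24 h. The SBP mouse was treated as the I/R mouse but received the drug, labelled MUSKARDIA and named Shexiang Baoxin Pill (SBP) in the study, in place of vehicle alone. The drug was given before the operation, and no section shows SBP without ligation. Differences between conditions and differences between single mice or cutting planes cannot be told apart.

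NAD carries electrons in energy metabolism and is also a substrate that some enzymes break down. Heart muscle renews it mainly by salvage. Nampt turns nicotinamide into nicotinamide mononucleotide (NMN), the nicotinamide riboside kinases Nmrk1 and Nmrk2 make NMN from nicotinamide riboside, and the Nmnat enzymes turn NMN into NAD. Naprt opens a separate route from nicotinic acid, Nnt passes electrons from NADH to NADP+ in the mitochondrial inner membrane, and Sirt1, Sirt3 and Parp1 consume NAD. Nmrk2 is a muscle gene that is known to be induced in stressed heart muscle.

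Series of 3 values are given in the order sham, I/R, SBP. The kept spots numbered 2234, 2082 and 1960, with a median of 10645 to 14672 UMIs (unique molecular identifiers, which count captured molecules). The markers of cardiomyocytes, 7 genes, together took 20441 to 26706 of every 1000000 UMIs (CPM). Of 4 atrial markers, Sln and Myl7 had 0 to 4 UMIs per section and Myl4 75 to 79, while Nppa, which stressed ventricle also expresses, was at 458, 1146 and 1380 CPM and made up nearly all of the list's sum of 461, 1149 and 1384 CPM. Over all genes compared, the median log2 ratio was 0.24 (I/R over sham), -0.17 (SBP over I/R) and 0.08 (SBP over sham). TMM factors, a scaling that sets most genes equal, moved every ratio by -0.23, 0.16 and -0.07 in these comparisons. Spots cannot tell fewer cells of a type from less RNA per cell.

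Nmrk2 (ENSMUSG00000004939) is a protein-coding gene of the minus strand at chr10:81198170-81202051 (GRCm38). The promoters of the riboside kinase whose level differed, of its paralog and of the enzyme of the main salvage route are shown from 250 bases before to 50 bases after the start site (RefSeq, GRCm38.p6), 5′ to 3′, with matches to a TATA box (TATAAA) in capitals. The windows are chr10:81201988-81202287 on the minus strand for Nmrk2, chr19:18631766-18632065 on the plus strand for Nmrk1 and chr12:32820085-32820384 on the plus strand for Nampt.
Nmrk2: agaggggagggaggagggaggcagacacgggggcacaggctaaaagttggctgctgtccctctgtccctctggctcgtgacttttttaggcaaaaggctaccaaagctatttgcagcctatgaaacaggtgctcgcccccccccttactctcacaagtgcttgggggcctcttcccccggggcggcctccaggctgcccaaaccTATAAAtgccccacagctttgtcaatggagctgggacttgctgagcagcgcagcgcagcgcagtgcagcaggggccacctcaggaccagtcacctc
Nmrk1: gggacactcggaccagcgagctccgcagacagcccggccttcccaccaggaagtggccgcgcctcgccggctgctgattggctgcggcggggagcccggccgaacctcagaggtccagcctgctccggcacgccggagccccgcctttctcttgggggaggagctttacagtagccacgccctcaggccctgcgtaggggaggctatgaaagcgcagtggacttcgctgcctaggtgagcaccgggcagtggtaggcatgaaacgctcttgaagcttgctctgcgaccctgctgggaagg
Nampt: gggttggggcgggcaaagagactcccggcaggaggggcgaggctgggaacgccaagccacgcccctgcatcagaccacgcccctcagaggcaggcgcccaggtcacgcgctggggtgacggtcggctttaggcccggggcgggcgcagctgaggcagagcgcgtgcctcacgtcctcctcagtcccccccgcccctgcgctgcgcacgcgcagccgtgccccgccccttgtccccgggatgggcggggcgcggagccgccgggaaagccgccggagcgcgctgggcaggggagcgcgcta
The Nmrk2 window had the motif once, beginning 46 bases before the RefSeq start site. The gene bounds given above are from GENCODE, whose 5′ end is another base. Of all 32851 promoter windows, 13.6% held it on either strand, and none of the windows of the 7 other members found in the table did. The clock E-box CACGTG, palindromic and present in 7.15% of windows, was found in those of Sirt1 (2 matches) and Parp1 (1 match). No window of a member matched the TEAD motif CATTCC, the CArG box or the MEF2 site, searched on both strands and held by 14.7%, 1.63% and 3.19% of all windows. These matches are letters in a window and say nothing on binding.

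Nmrk2 was the member that differed most between sections. Its UMIs numbered 313 (sham), 1607 (I/R) and 2393 (SBP), and its level was 12.5 CPM (95% interval 11.1 to 13.9), 53.1 CPM (50.6 to 55.8) and 111 CPM (106 to 115). The order was sham, I/R, SBP, and the intervals of neighbours in this order did not overlap. The level was 4.26-fold higher in I/R than in sham, a log2 ratio of 2.09 (1.92 to 2.27), while 8.38% of 12231 genes compared were at least 2-fold higher. It was 2.08-fold higher in SBP than in I/R, a log2 ratio of 1.06 (0.97 to 1.15), where 0.337% of 12151 genes were at least 2-fold higher and 4.53% at least 2-fold lower. Against sham, the SBP level was 8.88-fold higher, a log2 ratio of 3.15 (2.98 to 3.32), and 1.48% of 11768 genes were at least 2-fold higher and 0.731% at least 2-fold lower. Ranked from the highest ratio, Nmrk2 was 148th for I/R over sham, 36th for SBP over I/R and 5th for SBP over sham. Since Nmrk2 was chosen from these ratios, its ranks describe the choice.

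The second riboside kinase gave no such difference. Nmrk1 (ENSMUSG00000037847, chromosome 19 of GRCm38) was counted with 31, 47 and 30 UMIs. These few UMIs are 1.23 CPM (0.839 to 1.75), 1.55 CPM (1.14 to 2.07) and 1.39 CPM (0.936 to 1.98), with intervals that overlap throughout. Its log2 ratio was 0.33 for I/R over sham (-0.35 to 1.04) and -0.16 for SBP over I/R (-0.88 to 0.53), so a 2-fold higher level in I/R than in sham lies inside the interval.

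**Figure D1:**
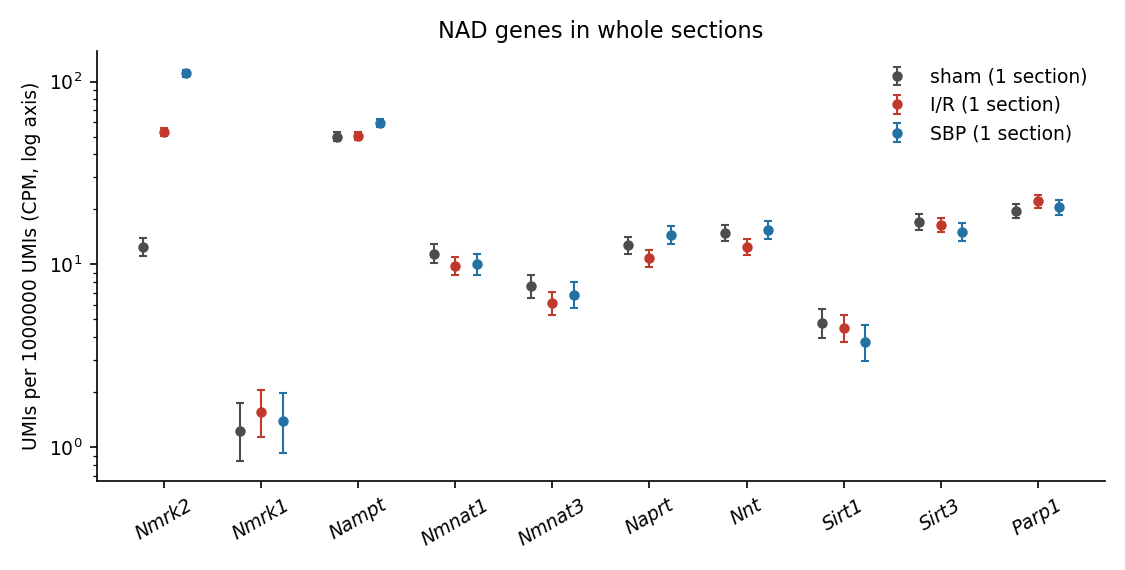
Level of the 10 genes in whole sections, as UMIs per 1000000 UMIs on a log axis, with 1 point per section and bars for the exact Poisson 95% interval. Nmrk2 runs from 12.5 CPM in sham through 53.1 in I/R to 111 in SBP, while each of the other genes lies within 2-fold in all sections.

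Nampt, the rate-limiting enzyme of salvage from nicotinamide (ENSMUSG00000020572, chromosome 12), differed far less than Nmrk2. Its 1254, 1532 and 1283 UMIs are 49.9 CPM (47.2 to 52.8), 50.7 CPM (48.2 to 53.3) and 59.3 CPM (56.1 to 62.6). Sham and I/R did not differ beyond counting error by total UMIs (log2 ratio 0.021, -0.087 to 0.13), while with TMM factors the ratio was -0.21. SBP was above both. SBP over I/R had a log2 ratio of 0.23 (0.12 to 0.34), and SBP over sham one of 0.25 (0.14 to 0.36). Nampt is known as an output of the circadian clock. All 11 listed clock genes that carry E-boxes or D-boxes had higher levels in SBP than in I/R. Their median log2 ratio was 0.90, beside -0.17 over all genes compared. In I/R, 9 of the 11 were below their sham level (median -0.41, beside 0.24 over all genes compared). These clock values are by total UMIs, and on that scale Nampt was at 0.021 (-0.087 to 0.13). TMM factors moved the ratios of Nampt and of the clock genes alike, by -0.23. The part of the clock genes in the level of Nampt was not tested.

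The ratio of Nmrk2 to Nampt within a section, which needs no scaling, was higher in I/R than in sham and higher again in SBP. For each Nampt UMI there were 0.250 Nmrk2 UMIs in sham (95% interval 0.220 to 0.283) and 1.05 in I/R (0.977 to 1.13). The SBP section had 1.87 (1.74 to 1.998). The log2 ratio of these ratios was 2.07 for I/R over sham (1.86 to 2.28) and 0.83 for SBP over I/R (0.69 to 0.97). For SBP over sham it was 2.90 (2.70 to 3.11). UMIs count transcript ends and were not divided by length, so the ratio is read between sections and not as the amount of one enzyme against the other.

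The Nmnat genes, which finish the synthesis of NAD, were low. Nmnat1, the nuclear enzyme, was at 11.5, 9.79 and 10.03 CPM. Nmnat3, the mitochondrial enzyme, was at 7.60, 6.15 and 6.80 CPM. Between I/R and sham the log2 ratio of Nmnat1 was -0.23 (-0.47 to 0.011) and that of Nmnat3 -0.31 (-0.61 to -0.0070), and for SBP over I/R both intervals included 0.

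Naprt, the entry from nicotinic acid, was at 12.7 CPM (11.3 to 14.2), 10.8 CPM (9.67 to 12.1) and 14.5 CPM (12.9 to 16.2). Its log2 ratio was -0.23 for I/R over sham (-0.46 to -0.0048) and 0.42 for SBP over I/R (0.19 to 0.65), the largest for SBP over I/R among the members after Nmrk2. Part of Naprt overlaps Eef1d on the same strand, and Eef1d had 5795 to 7168 UMIs per section. The overlap lies at the 5′ end of Naprt and the 3′ end of Eef1d, while the libraries record 3′ ends. Its effect on the count of Naprt was not tested. Nnt was at 14.9, 12.5 and 15.4 CPM. Its log2 ratio was -0.26 for I/R over sham (-0.47 to -0.046) and 0.31 for SBP over I/R (0.092 to 0.52). The files list the symbol Nnt under 2 overlapping identifiers. ENSMUSG00000025453 held all of its UMIs, and ENSMUSG00000116207 had 0 in every section, so reads that fit both genes may be missing from the count. The substrain C57BL/6J is known to carry a deletion inside Nnt, the labels give no substrain, and counts of the 3′ end check nothing on it.

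The NAD-consuming members differed little. Sirt1, a nuclear deacetylase, was at 4.78, 4.46 and 3.74 CPM. Sirt3, the main mitochondrial deacetylase, was at 17.1, 16.4 and 15.1 CPM, and Parp1, which answers DNA breaks, at 19.6, 22.1 and 20.5 CPM. Of their log2 ratios between sections by total UMIs, the one whose interval left out 0 was that of Parp1 for I/R over sham. It was 0.17 (0.00055 to 0.34), and TMM factors turned it to -0.059. For Sirt3 the ratio of I/R over sham was -0.061 (-0.25 to 0.13) by total UMIs and -0.29, below that interval, with TMM factors. Sirt3 overlaps Ric8a and Psmd13 on the other strand.

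Of the 9 members other than Nmrk2, 0 differed by 2-fold in any comparison. The share of all genes that did so, in either direction, was 8.9% for I/R over sham, 4.87% for SBP over I/R and 2.21% for SBP over sham. The median log2 ratio of the 9 was -0.10 for I/R over sham, beside 0.24 over all genes compared, and 0.04 for SBP over I/R, beside -0.17. How many lay above 0 depended on the scaling. For I/R over sham 3 of 9 were above 0 by total UMIs and 1 of 9 with TMM factors. For SBP over I/R the counts were 5 of 9 and 7 of 9. The share of all genes above 0 is not given here, so these counts are not read as a departure from it.

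Genes of the pathway outside the members were within 2-fold for the most part, as were all genes compared. Of 49 such genes, 38 had at least 50 UMIs in I/R and sham together, and 3 of them were at least 2-fold higher in I/R (8.38% of all genes compared) and 0 lower (0.523%). These were Pnp, Nt5e and Bst1. Pnp, which splits nicotinamide riboside and other nucleosides, was at 17.96 CPM in sham and 36.4 in I/R, a log2 ratio of 1.02 (0.86 to 1.18). Mice have a close copy, Pnp2, so the count of Pnp is uncertain. Nt5e (CD73), which can take the phosphate from extracellular NMN, was at 3.58 and 7.37 CPM (1.04, 0.68 to 1.41). Bst1 (CD157), an NAD-consuming surface enzyme of myeloid cells, was at 2.55 and 7.74 CPM (1.60, 1.20 to 2.03). All 3 were lower in SBP than in I/R, where Nmrk2 was higher, with log2 ratios of -0.51 for Pnp, -0.60 for Nt5e and -0.86 for Bst1. The summed level of 4 neutrophil markers went the same way, at 27.2, 236 and 115 CPM, and that of 5 macrophage markers was 323, 426 and 320 CPM. Their part in these ratios was not tested. For SBP over I/R 37 of the 49 genes could be compared, and 0 were past 2-fold in either direction, beside 4.87% of all genes compared.

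The genes of synthesis from tryptophan were hardly detected. Of 10, 3 reached 50 UMIs in I/R and sham together, and all 10 summed to 6.65, 6.18 and 4.30 CPM. Of 19 NAD-consuming genes outside the members compared for I/R over sham, 18 were above 0 by total UMIs. Their median log2 ratio of 0.25 lies at the median of all genes (0.24), so the count is not read as particular to them. TMM factors moved every ratio by -0.23. Of the consuming members, Sirt1 (-0.098) and Sirt3 (-0.061) were below 0 by total UMIs and Parp1 (0.17) above.

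**Figure D2:**
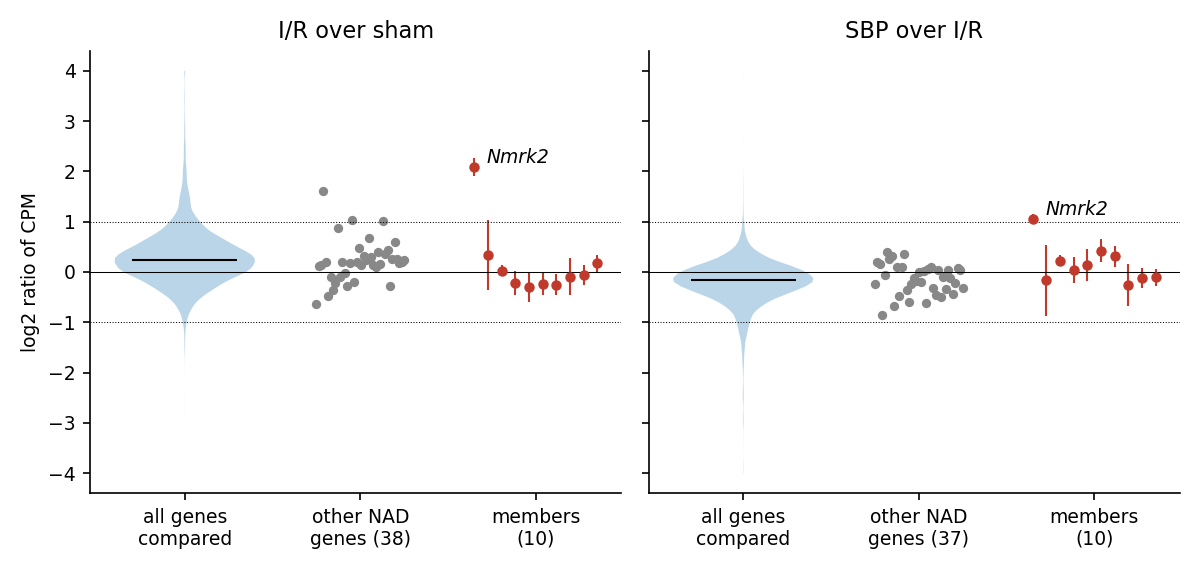
Log2 ratios of CPM for I/R over sham and SBP over I/R, with a violin for all genes compared (line at the median, the few genes beyond the axis drawn at its ends), grey points for 38 and 37 NAD genes outside the members, and red points with 95% counting intervals for the 10 members in listed order. Nmrk2 is above 2-fold (dotted line) in both panels, at 2.09 and 1.06, and the other members lie around 0.

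Spots were then grouped by Ankrd1, a stretch and injury gene of cardiomyocytes. The threshold was the 95th percentile of sham spots, 26.96 Ankrd1 UMIs per 10000 UMIs. Above it lay 112, 479 and 326 spots, which is 5.01%, 23.0% (21.2% to 24.9%) and 16.6% (15.01% to 18.4%) of spots. Most Ankrd1-high spots of I/R (365 of 479) were also high in a list of 10 injury genes, against 130 of 326 in SBP. Of the other spots, 436 of 1603 in I/R and 186 of 1634 in SBP were high in this list. Spots high in it were thus rarer in SBP in both kinds of spots. The list includes Nppb, and its threshold was also the 95th percentile of sham spots. Ankrd1-high spots were deeper, with a median of 17348 against 14103 UMIs in I/R.

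Nmrk2 was higher in Ankrd1-high spots of every section. In sham it was at 32.0 CPM in Ankrd1-high spots (24.3 to 41.2) and 10.9 in the other spots (9.61 to 12.3). In I/R the levels were 107 CPM (100 to 115) and 33.1 CPM (30.7 to 35.6). In SBP they were 219 CPM (205 to 235) and 86.6 CPM (82.3 to 91.0). High over other spots gave a log2 ratio of 1.55 (1.12 to 1.96), 1.70 (1.55 to 1.84) and 1.34 (1.22 to 1.46). Among genes with at least 200 UMIs in the section this ratio ranked 42nd of 6660, 10th of 8072 and 27th of 6364, and the median of all these genes was 0.27, 0.25 and 0.19. Nmrk2 and this split of spots were chosen with earlier results of these data known, so these ranks also describe the choice. Ankrd1-high spots held 54.6% of the Nmrk2 UMIs and 27.02% of all UMIs in I/R, and 35.9% and 18.1% in SBP.

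The difference between sections was present in both kinds of spots. SBP over I/R gave a log2 ratio of 1.03 within Ankrd1-high spots (0.89 to 1.17) and 1.39 within the other spots (1.26 to 1.52). For I/R over sham it was 1.75 (1.37 to 2.15) and 1.60 (1.39 to 1.81). The SBP section had fewer Ankrd1-high spots than I/R and more Nmrk2 in spots of either kind. Spots high neither in Ankrd1 nor in the injury genes held Nmrk2 at 10.5 CPM (9.19 to 11.9), 27.9 CPM (25.5 to 30.5) and 79.2 CPM (74.9 to 83.6).

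The spots of each section were also ordered by Ankrd1 and cut into 5 bins of equal size. Nmrk2 was higher in each bin than in the one below it in all sections. In I/R it ran from 16.8 CPM in the lowest bin (13.7 to 20.3) to 109 in the highest (102 to 117). In SBP it ran from 42.2 (36.2 to 48.8) to 216 CPM (203 to 230), and in sham from 5.87 (3.87 to 8.54) to 25.8 CPM (21.9 to 30.2). The intervals of neighbouring bins overlapped among the lower 4 bins of sham and the lowest 2 of I/R.

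For Nampt the levels were lower where Ankrd1 was high, in I/R as in SBP. In I/R it was at 38.4 CPM in Ankrd1-high spots (34.3 to 42.9) and 55.2 elsewhere (52.1 to 58.4), a log2 ratio of -0.52 (-0.71 to -0.34). In SBP the levels were 44.7 (38.3 to 51.8) and 62.6 CPM (58.9 to 66.4), a log2 ratio of -0.49 (-0.72 to -0.26). In sham the interval included 0 (-0.18, -0.52 to 0.14). The lowest and the highest bin by Ankrd1 were at 56.8 and 36.8 CPM in I/R and at 63.3 and 46.4 CPM in SBP.

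**Figure D3:**
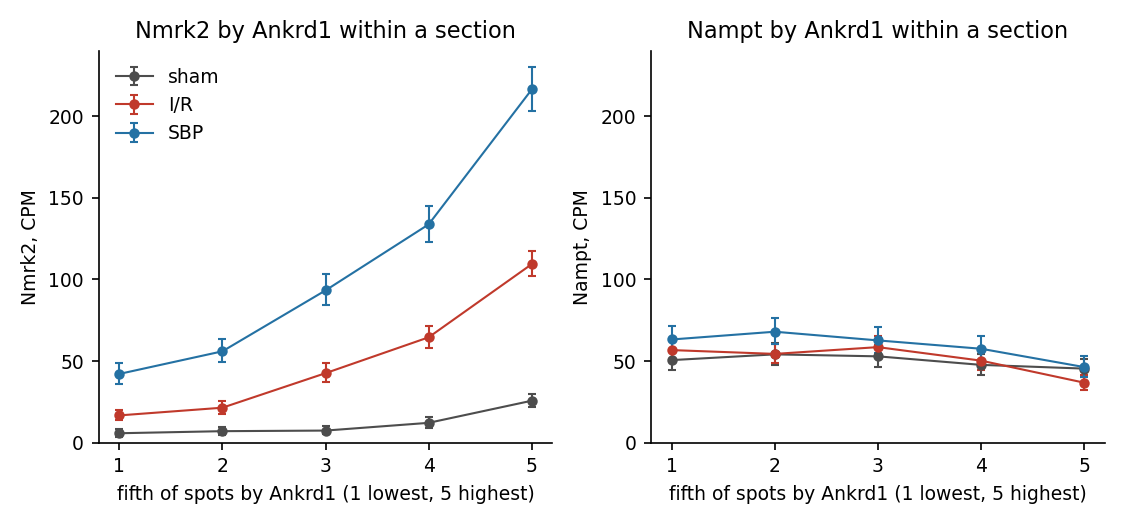
Nmrk2 (left) and Nampt (right) in 5 bins of the spots of each section ordered by Ankrd1 UMIs per 10000 UMIs, in CPM with exact Poisson 95% intervals and the same axis in both panels. Nmrk2 reaches 216 CPM in the highest bin of SBP and 109 in that of I/R, while Nampt in I/R runs from 56.8 down to 36.8 CPM.

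Of the other members, Sirt3 was lower in Ankrd1-high spots of I/R, at 11.99 CPM against 17.99 (log2 ratio -0.59, -0.92 to -0.26), and of sham (-0.86, -1.63 to -0.18), while in SBP the interval included 0 (-0.29, -0.75 to 0.15). Nnt was lower in Ankrd1-high spots of SBP, at 10.2 CPM against 16.6 (-0.70, -1.22 to -0.22), and Sirt1 was higher in those of I/R, at 6.12 CPM against 3.85 (0.67, 0.13 to 1.19). For Nmrk1, Nmnat1, Nmnat3, Naprt and Parp1 the interval included 0 in every section. Whether these ratios differ between sections was not tested.

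At a depth of 6500 UMIs per spot, 142 of 2102 spots in sham had a Nmrk2 UMI, a share of 6.76% (5.72% to 7.91%). In I/R it was 441 of 1880, a share of 23.5% (21.6% to 25.4%), and in SBP 760 of 1747, a share of 43.5% (41.2% to 45.9%). Without thinning the shares were 11.5%, 40.2% and 56.6%. The share with a Nampt UMI was 28.1%, 26.6% and 32.5% after thinning, and 40.0%, 47.6% and 45.2% without.

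The variance of thinned Nmrk2 UMIs over spots was 1.02, 1.49 and 1.51 times their mean, where an even spread gives about 1. For an uneven gene this ratio also grows with the mean, which was 0.070, 0.314 and 0.710 UMIs per spot. A ratio near 1 in sham thus does not show an even spread, and the ratios are not compared between sections. The thinned maximum was 3 UMIs in a spot of sham and 7 in I/R and in SBP. For Nampt the variance was 1.12 to 1.14 times the mean in all sections. The 10% of unthinned spots richest in Nmrk2 held 89.8%, 53.3% and 40.8% of its UMIs. In sham only 11.5% of unthinned spots had a Nmrk2 UMI, so this share follows how sparse the gene is. It is thus not read as a difference in spread between sections.

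**Figure D4:**
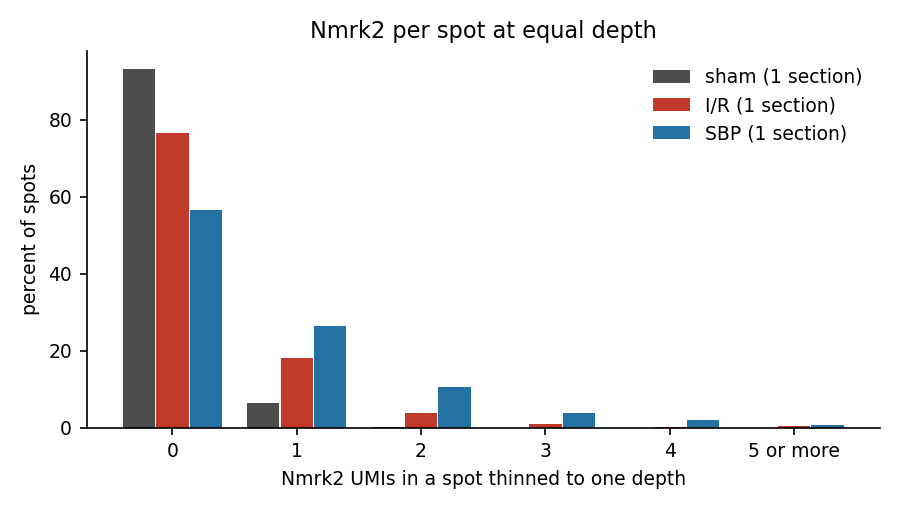
Percent of spots by the number of Nmrk2 UMIs after thinning every spot to 6500 UMIs, with 1 bar per section. Spots without a Nmrk2 UMI were 93.2%, 76.5% and 56.5%, in the order sham, I/R, SBP, and spots with 2 or more are seen mainly in I/R and SBP.

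Nmrk2 and Nampt met in 1.52%, 5.21% and 13.5% of thinned spots, against 1.90%, 6.24% and 14.1% from the product of their shares. Spots with Nmrk2 and no Nampt were 5.23%, 18.2% and 30.0% of all.

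Compared at the same depth, spots that carried Nmrk2 in SBP held Ankrd1 at 1842 CPM against 873 in spots without, and Nppa, a natriuretic peptide of stressed myocardium, at 2061 against 731 CPM. In I/R the levels were 2397 and 1343 CPM for Ankrd1 and 1814 and 827 CPM for Nppa. The summed level of 7 cardiomyocyte markers was 23386 CPM in carrying and 24250 in other spots of SBP, and 19201 and 21214 in I/R. For 5 fibroblast markers it was 593 and 540 CPM in SBP, for 5 endothelial markers 733 and 732, and for 4 smooth muscle markers 108 and 119. For 5 macrophage markers it was 342 and 283, for 4 neutrophil markers 101 and 89.6, and for 4 red blood cell genes 3949 and 3940. In I/R the sums were 623 and 578 (fibroblast), 780 and 774 (endothelial) and 230 and 238 (smooth muscle). They were 442 and 418 (macrophage), 267 and 218 (neutrophil) and 3920 and 4115 (red blood cell). Skeletal muscle is another known source of Nmrk2, and its 7 fibre markers summed to 4.02, 4.89 and 4.99 CPM, with Myh4 at 0 in every section and Myh1 and Myh2 at 0 in I/R and SBP. In sham, spots that carried Nmrk2 held these fibre markers at 11.9 CPM (11 UMIs) and the others at 4.32. In I/R the levels were 4.54 and 3.96 CPM and in SBP 4.66 and 5.46, and both intervals of the log2 ratio included 0. Most UMIs of the fibre list came from Tnni2, with 68, 103 and 69. The 4 adipocyte markers had 1, 0 and 118 UMIs, and in SBP they stood at 12.6 CPM in spots that carried Nmrk2 and 1.71 CPM in spots without. Their SBP UMIs lay in 26 spots, which held Nmrk2 at 89.6 CPM, and Nmrk2 in SBP was at 111 CPM with or without these spots.

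The genes whose UMIs went most with those of Nmrk2 over spots, by the lower Pearson r of I/R (2082 spots) and SBP (1960 spots) among 3202 genes, were Cryab, Fhl1, Ankrd1, Nppa, Nppb, Hspb1, Des, Csrp3, Xirp2 and Flnc. Cryab, a small heat shock protein, had r = 0.38 in I/R and 0.40 in SBP. For Nppa r was 0.36 and 0.46, and for Ankrd1 0.37 and 0.44. The median gene had r = 0.03 in both sections. In sham, where Nmrk2 is sparse, r was 0.12 for Cryab, 0.0008 for Nppa and 0.20 for Ankrd1. Over the 10 genes the sham r ran from -0.03 (Csrp3) to 0.20 (Ankrd1), and that of the median gene was 0.02. The genes that went least with Nmrk2 were Tcap, Hrc, Fabp3, Rpl3l and Acsl1, with r of -0.24 in I/R and -0.30 in SBP for Tcap, a cap protein of the sarcomere. Spots of a section share their mouse, library and neighbours, so these values are descriptions. Of the 10 genes most like Nmrk2 over spots, all were higher in I/R than in sham, and 9 were lower in SBP than in I/R while Nmrk2 was higher. The exception was Nppa (1146 CPM in I/R, 1380 in SBP), and for the others the log2 ratio of SBP over I/R ran from -1.35 (Nppb) to -0.31 (Des). The median over all genes compared had the same directions, at 0.24 (I/R against sham) and -0.17 (SBP against I/R). The directions alone thus do not set the 10 genes apart from the median gene. Their ratios for I/R over sham lay further from 0, at 0.71 (Csrp3) to 2.03 (Nppb), as did those of the 9 genes lower in SBP than in I/R. The share of all genes on each side of 0 is not given here.

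An antisense gene, Atcayos, overlaps Nmrk2 on the other strand. Its UMIs numbered 1223, 732 and 665, which is 48.7, 24.2 and 30.7 CPM. How the counting treated strand is not given in the sources used here.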

How the data were processed

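Visium libraries of 3 heart sections were used, 1 for each of sham, I/R and SBP. The authors deposited counts of UMIs (unique molecular identifiers) per gene and spot, without normalization. The file headers and the submitters' processing notes name Space Ranger 1.3.0 with mm10, while the study's methods name another version and a human reference. The 32285 identifiers listed are those of mouse genes.

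A spot had to have 200 detected genes to be kept (1 to 3 per section failed). UMIs were summed over spots and divided by all UMIs of the section (CPM). The 95% intervals were exact Poisson for levels, exact binomial (Clopper-Pearson) for shares, and for ratios exact conditional binomial, and they cover counting error only. With 1 section per condition no test and no p-value was possible. Total UMIs ran from 21631280 to 30238530 per section, so that a gene at 1.23 CPM, the lowest member level, rested on 31 UMIs.

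A spot was called Ankrd1-high above the 95th percentile of Ankrd1 UMIs per 10000 UMIs in sham spots, which was 26.96. Before spots with a UMI were counted, random thinning brought every spot to 6500 UMIs (the 10th percentile over all spots, rounded down to a multiple of 500), and shallower spots were left out. Likeness to Nmrk2 was Pearson's r over spots of the natural log of 1 + UMIs per 10000. No clustering was run, and spot positions were not used here. Barcodes shared between sections (1207 to 1568 per pair) follow from the fixed barcode set of the slides.

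Members and gene lists were chosen with earlier results of these data known. Named genes were the members, Ankrd1, genes of the NAD lists at least 2-fold different with at least 50 UMIs in the 2 sections, the 10 genes most and the 5 least like Nmrk2 over spots among those with at least 500 UMIs in I/R and in SBP, and examples of marker lists. Intervals and likeness were tested on simulated data. Alternatives were other denominators and scalings (TMM factors from edgeR 4.0.16, median-of-ratios size factors), spot filters, thresholds, thinning depths and leaving out the spots with the most UMIs. Python 3.11.15, numpy 2.4.6, scipy 1.17.1, pandas 2.3.3 and R 4.3.3 were used. Gene positions are from GENCODE M21 (GRCm38) and promoter sequences from RefSeq (GRCm38.p6), which held 8 of the 10 members.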

Additional observations from a re-analysis of the deposited data

How the results depend on the processing

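No paired analysis was possible because a condition is represented by a single section, and for the same reason no replicate could be left out. A value counts as unchanged within its 95% counting interval. Nmrk2 kept its direction in every comparison under all alternatives run, from 1.86 to 2.25 for I/R over sham, 1.06 to 1.22 for SBP over I/R and 3.08 to 3.39 for SBP over sham (log2). Outside the interval lay TMM factors (1.86 for I/R over sham, 1.22 for SBP over I/R), median-of-ratios size factors (1.86 and 1.22), equal weight for each spot (1.19 for SBP over I/R, 3.39 for SBP over sham) and leaving out the 1% of spots richest in Nmrk2 (3.39 for SBP over sham). Leaving out the 1% of spots richest in Nmrk2 removed 21.4%, 12.1% and 6.77% of its UMIs (sham, I/R, SBP). The share removed was larger where Nmrk2 was lower, so this step by itself raises the ratios of Nmrk2 between sections. The 2.25 for I/R over sham also came from it. Leaving out spots with an adipocyte UMI, chosen after seeing the data, gave 2.09, 1.06 and 3.15. For Nmrk2 over Nampt, equal weight gave 0.99 for SBP over I/R and 3.17 for SBP over sham, and leaving out the richest spots 3.15 for SBP over sham.

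For Ankrd1-high over other spots the 99th percentile of sham gave 1.53 in I/R and 1.22 in SBP, a region set by the injury genes 0.98, 1.54 and 1.10 (sham, I/R, SBP), and leaving out the richest spots 1.51 in I/R. The injury genes include Nppb, which is among the genes that went most with Nmrk2 over spots. A region set by them is thus not independent of genes like Nmrk2. The share of spots with a Nmrk2 UMI was 11.5%, 40.2% and 56.6% unthinned and 3.43%, 12.96% and 26.4% at 3000 UMIs. Over 20 draws of the thinning it ran from 23.4% to 25.9% in I/R. The draw used for the values above gave 23.5%, near the low end. Of the 9 other members, 0 passed 2-fold under any alternative except leaving out the 1% of spots with the most UMIs, where 1 passed (Nmrk1, at 1.39 in I/R over sham and -1.40 in SBP over I/R). That step removed 77.4%, 53.2% and 80% of the Nmrk1 UMIs. With TMM factors the I/R over sham ratio lay outside its interval for Nampt (-0.21), Naprt (-0.46), Nnt (-0.49), Sirt3 (-0.29) and Parp1 (-0.059). The SBP over I/R ratio did so for Nampt (0.38). Depth limits Nmrk1 and Sirt1 most.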

Other observations

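By total UMIs, 1 gene of 12082 compared, Nmrk2, was at least 2-fold higher both in I/R than in sham and in SBP than in I/R. The count depended on the scaling: without mitochondrial UMIs 2 genes met both steps (Nmrk2 and Myh7), and with TMM factors or median-of-ratios size factors 3 did (Nmrk2, Myh7 and Scgb3a1). With TMM factors the log2 ratios of the steps were 1.86 and 1.22 for Nmrk2, 1.36 and 1.14 for Myh7, and 1.03 and 1.01 for Scgb3a1, which had 27 to 101 UMIs per section. These scalings were added after seeing the data. By total UMIs, 8.38% of genes compared were at least 2-fold higher in I/R than in sham, and 0.337% in SBP than in I/R. The I/R section enters both ratios, above in the first and below in the second, so the 2 steps are not independent. The criterion was set after the values of Nmrk2 were seen, and at 2.08-fold Nmrk2 lies just inside it for the second step by total UMIs. At 1.5-fold by total UMIs, 6 genes met both steps, and they are named here with their values known. The nearest was Myh7, the slow myosin heavy chain that adult mouse ventricle re-expresses under stress, at 100.1, 302 and 596 CPM (sham, I/R, SBP; 3.02-fold and 1.97-fold). The others were the chemokine gene Cxcl2, the secretoglobin gene Scgb3a1 and the class I histocompatibility genes H2-Q6 and H2-Q7, which share near-identical sequence, and these 4 had 78 to 243 UMIs in I/R.

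Among spots of SBP, those high in Ankrd1 but not in the injury list held Nmrk2 at 202 CPM (184 to 220) and those high in the injury list but not in Ankrd1 at 163 CPM (144 to 184), against 249 CPM where both were high (224 to 276). In I/R these levels were 68.2 CPM (57.6 to 80.3), 54.7 CPM (47.9 to 62.2) and 121 CPM (113 to 130). Ankrd1, and Nppb of the injury list, are among the genes most like Nmrk2 over spots. These kinds of spots are thus not set independently of Nmrk2.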
